A study of Mus musculus with 6 samples.

Results

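H3K4me3 peaks of STHdhQ111 cells given diacylglycerol kinase inhibitor II (DKI) were compared with those of the same cells given vehicle. STHdhQ111 is a conditionally immortalized mouse striatal progenitor line homozygous for a knocked-in mutant Huntingtin gene with an expanded glutamine stretch, and both conditions used this line. Cells were kept without serum for 24 h, either with vehicle alone (Q111SST) or with 10 uM DKI. The series held 6 lists of peaks, 1 per condition, of which 2 entered the comparison. The other 4 were Q7SST, the wild-type STHdhQ7 line with vehicle, and STHdhQ111 cells with 10 uM cyproheptadine, loxapine or meclizine, and they are set beside DKI only where stated. A gene was called marked where a peak lay within 1 kb of the start of one of its protein-coding transcripts. Of 21829 protein-coding genes 11953 were marked in both lists, with 12567 in Q111SST and 12009 with DKI. There was 1 list per condition, so no difference given here has a replicate check, and no test was made. Each line is a single cell line, and read depth was unknown. In such bulk samples, fewer cells with a mark and less mark per cell cannot be told apart.

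H3K4me3, the trimethylated form of lysine 4 on histone H3, is laid down by SET1 and MLL complexes around the starts of active and poised genes, where it usually extends further into the gene than upstream of it. Diacylglycerol kinases turn diacylglycerol into phosphatidic acid, and so end the signal that diacylglycerol sends to protein kinase C, protein kinase D and RasGRP proteins. Blocking the kinases is therefore known to favour the diacylglycerol branch of this signalling over the phosphatidic acid branch.

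Some of the DNA in question is shown first, as stretches of GRCm38 (mm10) upstream of a coding start, 5′ to 3′ on the gene's strand, none of which overlapped an annotated exon. Capitals mark matches on either strand to the CCAAT box, to the SP1-type box GGGCGG, or to TGATGCAA. The last is the core of sites that ATF4 binds with C/EBP partners in stress-responsive genes. The stretches end 1 base before the start. Ulk2 (chr11:61855074-61855223, minus strand) and Stk38l (chr6:146725162-146725311, plus strand) are shown because all 150 bases lay in a DKI peak and 0 lay in a Q111SST peak.
Ulk2: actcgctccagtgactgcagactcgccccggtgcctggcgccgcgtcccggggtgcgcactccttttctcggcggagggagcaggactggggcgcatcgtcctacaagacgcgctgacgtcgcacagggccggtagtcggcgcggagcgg
Stk38l: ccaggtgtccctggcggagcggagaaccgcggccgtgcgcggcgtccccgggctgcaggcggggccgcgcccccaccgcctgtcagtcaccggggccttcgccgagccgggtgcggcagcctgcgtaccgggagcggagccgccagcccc
Chac1 (chr2:119351029-119351228, plus strand) and Atf3 (chr1:191183341-191183490, minus strand) are shown as the stress-response promoters with the largest drop in rank with DKI, over peaks that were not narrower. Both were covered in full in both lists, and both hold TGATGCAA on the other strand, at bases 180 to 173 before the start in Chac1 and 103 to 96 in Atf3.
Chac1: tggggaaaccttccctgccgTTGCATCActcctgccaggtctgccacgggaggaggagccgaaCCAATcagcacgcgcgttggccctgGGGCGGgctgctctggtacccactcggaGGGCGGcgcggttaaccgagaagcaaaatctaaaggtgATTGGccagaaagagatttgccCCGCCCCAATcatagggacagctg
Atf3: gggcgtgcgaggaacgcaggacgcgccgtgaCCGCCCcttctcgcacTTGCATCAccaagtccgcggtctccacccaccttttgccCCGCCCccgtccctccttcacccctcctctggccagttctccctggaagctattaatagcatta
Egr3 (chr14:70077053-70077202, plus strand) stands for the immediate early promoters that were higher in rank with DKI, and was covered in full in both lists. Dock6 (chr9:21852636-21852785, minus strand) stands for promoters with a short, high DKI peak: all 150 bases lay in the Q111SST peak and 44 in the DKI peak.
Egr3: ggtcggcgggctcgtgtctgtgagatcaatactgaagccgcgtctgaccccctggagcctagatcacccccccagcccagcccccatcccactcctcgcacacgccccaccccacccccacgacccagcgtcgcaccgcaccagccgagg
Dock6: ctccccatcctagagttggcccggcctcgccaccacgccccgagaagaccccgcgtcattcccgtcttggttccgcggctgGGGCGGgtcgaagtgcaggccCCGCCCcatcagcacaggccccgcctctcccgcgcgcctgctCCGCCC

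The DKI list was the shorter one. It held 30758 peaks over 29.5 Mb, against 40406 peaks over 44.6 Mb in Q111SST, and the median peak was 785 bp wide against 922 bp. Peaks of at least 3 kb numbered 255 with DKI and 795 in Q111SST. A DKI peak overlapped 69.8% of Q111SST peaks, and a Q111SST peak overlapped 93.4% of DKI peaks. The share of Q111SST peaks found again followed their score, which is the authors' own number for each peak. It was 24.9% for peaks up to percentile 25 (95% Wilson interval 24.1% to 25.8%), 61.1% between 25 and 50, 93.9% between 50 and 75, and 99.9% above 75 (99.8% to 99.9%). These intervals cover counting error only. Within 1 kb of a coding start 93.6% of Q111SST peaks had a DKI peak, against 57.1% of those over 50 kb away. The gap between promoters and more distant peaks was also there at like strength: between percentiles 25 and 50, 73.7% of peaks near a coding start and 59.5% of the others were found. Each of the 795 Q111SST peaks of at least 3 kb had a DKI peak, but only 222 had one that was itself at least 3 kb wide, and 207 were met by 2 or more separate DKI peaks.

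Promoter strength was the percentile of the highest-scoring peak of a gene among all peaks of its list. A promoter was called higher or lower where it differed by at least 10 percentile points. With DKI, 419 of 11953 promoters were higher, which is 3.51%, and 4650 were lower, which is 38.9%. The median difference, DKI minus Q111SST, was -6.62 points. A shorter list lacks weak peaks, which lowers the percentile of those that remain, so both lists were also cut to their strongest 30758 peaks. The median difference was then -1.85 points, with 1316 promoters higher (11.1%) and 2551 lower (21.6%) of 11836. When promoters were ranked only among the promoters marked in both lists, 2681 were higher (22.4%) and 2885 lower (24.1%). The excess of lower calls thus depended on the scale, and calls below are given for whole lists and, where it matters, for lists of equal size. Of the 419 higher promoters 381 were also higher with equal-sized lists, all 2551 lower promoters of the equal-sized lists were also lower with whole lists, and 8 that were lower with whole lists were higher with equal-sized ones.

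**Figure D1:**
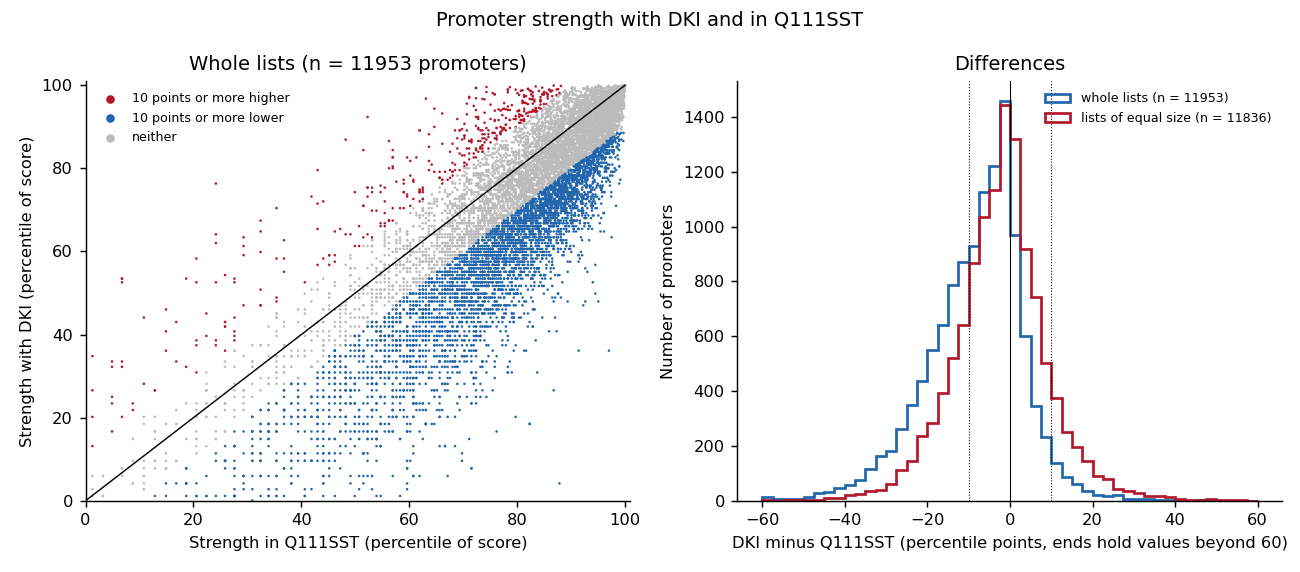
Left, strength percentile of each of 11953 promoters in Q111SST (x axis) and with DKI (y axis), coloured by a difference of at least 10 points; right, the number of promoters at each difference with whole lists and with lists of equal size. Most points lie under the diagonal, and the median moves from -6.62 to -1.85 points when the lists are of equal size.

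Peaks were narrower with DKI. The strongest peak of a promoter was narrower by at least 1.5 times at 2222 promoters (18.6%) and wider by that factor at 151 (1.26%). The median width over promoters marked in both lists was 1844 bp in Q111SST and 1473 bp with DKI, and the median ratio for a promoter was 0.833. With equal-sized lists 2161 promoters were narrower and 139 wider. The cut removes weak peaks and leaves the width of each remaining peak unchanged. All of these calls were therefore among those above, and they are no separate check. By the bases covered by peaks within 5 kb of the starts, 1897 of the 2222 remained narrower, but only 43 of the 151 remained wider. Of 11507 promoters marked in all 6 lists, DKI had the narrowest peak at 6414, or 55.7%, and the widest at 161.

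Peaks were shorter mainly on the gene side of the start. Among 7601 promoters whose start was covered in both lists and which had no divergent coding start within 2 kb, the peak reached a median of 1149 bp downstream in Q111SST and 902 bp with DKI. Upstream it reached 606 bp and 537 bp. The median change for a promoter was -202 bp downstream and -43 bp upstream. The downstream side was shorter by over 200 bp at 50.6% of these promoters, and the upstream side at 11.7%. Where a coding gene started on the other strand within 2 kb (n = 2052), so that both sides lie towards a gene body, the changes were alike, at -160 bp and -150.5 bp. Over 6573 promoters with the start covered in all 6 lists, the median downstream change from Q111SST was -202 bp with DKI, -102 bp with cyproheptadine, -75 bp with meclizine, -49 bp in Q7SST and -4 bp with loxapine. Upstream it was -52 bp with cyproheptadine, -45 bp with DKI, -16 bp with meclizine, -7 bp with loxapine and 0 bp in Q7SST. These 5 comparisons share the Q111SST list. The DKI list was also the shortest of the 6, and the part of list size or enrichment in the extent of peaks was not tested.

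**Figure D2:**
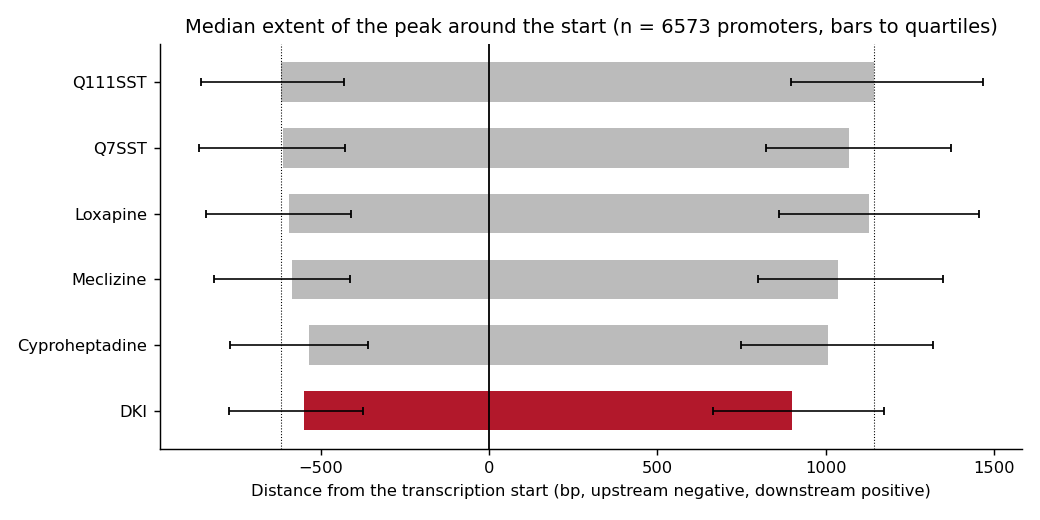
Median distance (bp) that the peak over the start reached upstream (left of 0) and downstream (right of 0) in each of the 6 lists, over 6573 promoters without a divergent coding start; whiskers run to the quartiles over promoters and dotted lines mark Q111SST. The downstream side ends at 899 bp with DKI and 1144 bp in Q111SST, while the upstream sides are 550 and 620 bp.

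Higher rank often went with a narrower peak. Of the 381 promoters higher on both scales, 232 (60.9%) were also narrower, beside 18.6% of all promoters. Between percentiles 50 and 75 in Q111SST, where the median of the 419 higher promoters lay (70.7), 28.8% were narrower. The median width of the 381 was 2096 bp in Q111SST and 1014 bp with DKI. Among the 10 largest of these were Ccdc88c, which encodes a Wnt and G protein signalling adaptor, and Rab11fip3, an effector of the Rab11 recycling endosome. Ccdc88c had a score of 46 over 2174 bp in Q111SST and 130 over 234 bp with DKI, or percentile 52.3 and 92.4. In the other 4 lists it lay between 61.0 and 76.5. Such genes were picked for their DKI difference: over 11275 promoters in equal-sized lists, DKI was the highest of the 6 at 17.3% and the lowest at 22.7%. Rab11fip3 went from 62 over 3269 bp to 160 over 668 bp, at percentile 63.1 and 96.8. Dock6, a guanine nucleotide exchange factor for Rac1 and Cdc42, had a score of 99 over 1493 bp and 229 over 306 bp, at percentile 78.6 and 99.5. When strength was taken as score times width, Ccdc88c (-24.3 points), Rab11fip3 (-8.21 points) and 4 more of the 10 were lower with DKI instead. Ank1, an ankyrin linking the spectrin skeleton to the membrane, was an exception: its peak kept its width (366 and 391 bp) while the score was 41 and 110. Hoxc6, a homeobox gene of body axis patterning, likewise had 23 over 466 bp and 61 over 532 bp. Both calls depended on the window: with a peak over the start Ank1 differed by 4.23 points, and with peaks within 5 kb Hoxc6 differed by 3.93 points. With cyproheptadine Ank1 stood at percentile 97.0, above the 86.9 of DKI. The others of the 10 were Tmtc2, Rpl36, Zfp692, Map7d1, Oaz2 and Qk, with DKI percentiles of 63.4 to 84.4 and Q111SST percentiles of 29.3 to 51.5. In Qk and Map7d1 the strongest peaks of the lists did not overlap, and at the Q111SST peak itself the difference was 2.07 points in Qk and -8.48 in Map7d1.

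Most of the 10 largest lower calls compared peaks at the same place. Tspan33, a tetraspanin, had a score of 110 over 562 bp in Q111SST and 21 over 284 bp with DKI. Cacna1a, the pore subunit of P/Q-type calcium channels, had 80 over 493 bp and 15 over 423 bp. Slc2a12, a glucose transporter, had 80 over 239 bp and 15 over 399 bp. Ptprf, a receptor tyrosine phosphatase, had 102 over 669 bp and 22 over 299 bp. The DKI percentile of Tspan33 was 18.5 against 46.3 to 82.3 in the other 5 lists, and that of Cacna1a 7.80 against 32.0 to 71.5. Slc2a12 had no peak with cyproheptadine. Micu2, a regulator of the mitochondrial calcium uniporter, had 92 over 1984 bp and 20 over 1437 bp, with a percentile of 16.7 against 54.2 to 76.2 elsewhere. Amd2 (130 and 13) and Gm8797 (126 and 26) also belong here. Both have close copies elsewhere in the genome, and how reads that match several places were counted is not given in the sources used here. Across all 4650 lower promoters the strongest peaks did not overlap in 94 (2.02%), near the 254 of all 11953 promoters marked in both lists (2.12%).

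The remaining large lower calls rested on the edge of the 1 kb window. Klf3, a Krüppel-like repressor, had a Q111SST peak of score 183 with its near edge 992 bp from the start. The DKI peak over it had its near edge 1046 bp away and scored 129, at percentile 92.1 against 97.0. Slc38a2, a neutral amino acid transporter induced by amino acid lack, had a Q111SST peak 972 bp from the start and a DKI peak 1041 bp away, at percentile 91.4 and 80.0. At Aamdc, which shares its peak with Rsf1, the wide Q111SST peak at percentile 82.3 was met by more than 1 DKI peak. The stronger of them lay 1197 bp from the start, at percentile 93.6, and the weaker one inside the window gave the call of -63.8 points. For these 3 genes the differences at the same place were -4.90, -11.4 and 11.3 points.

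Wider promoters were few, and 7 passed the size limit by both width measures with both peaks at or above the median score of their list. They were Cth, Gm10721, Stk38l, Kcna7, Ralgapb, Gpr37 and Ulk2. In Ulk2, Stk38l, Ralgapb and Gpr37 the Q111SST peak began 569, 142, 344 and 85 bp from the nearest start and did not cover it, while the DKI peak did. Ulk2, a kinase that starts autophagy, went from 1381 to 2153 bp as its score went from 209 to 98. Stk38l, a kinase of the Hippo pathway family, went from 1371 to 2231 bp at scores of 183 and 126. The Ulk2 width was 2357 bp in Q7SST, 2433 bp with meclizine, 1425 bp with loxapine and 1189 bp with cyproheptadine. Thus DKI, meclizine and Q7SST were wide, and Q111SST, loxapine and cyproheptadine were not. Cth, which makes cysteine from cystathionine, had the same grouping: 2051 bp with DKI, 2152 bp with meclizine and 2268 bp in Q7SST, but 1037 bp in Q111SST, 932 bp with loxapine and 740 bp with cyproheptadine. Its percentile was 85.2 in Q111SST and 54.3 with DKI. The grouping did not hold in Ralgapb, which was 1838 bp wide with loxapine and 1653 bp with DKI. Nor did it hold in Kcna7 and Gpr37, which were 377 and 606 bp wide with meclizine and 503 and 699 bp in Q111SST. Gm10721 shares its peak with Gm10720 in a repeated family of gene models, so its values are uncertain. Over the 43 promoters wider by both measures, 29 were called lower in strength and 6 higher, beside 38.9% and 3.51% of all promoters. Many were weak, with a median Q111SST score of 40 where that of the whole list was 43. Between percentiles 25 and 50 in Q111SST, 59.7% of all promoters were lower and 8.89% higher.

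**Figure D3:**
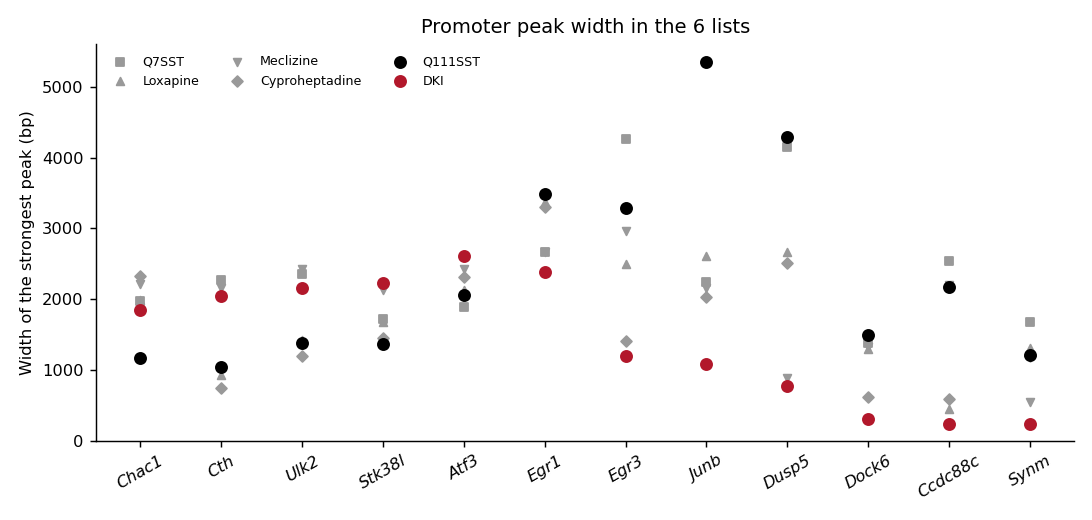
Width of the strongest promoter peak (bp) of 12 genes in each of the 6 lists, with Q111SST in black, DKI in red and the other 4 lists in grey. Chac1, Cth and Ulk2 are wider with DKI (1851, 2051 and 2153 bp) than in Q111SST (1167, 1037 and 1381 bp), and Junb, Dusp5, Dock6 and Synm are the narrowest with DKI.

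The list of amino acid synthesis and stress response genes stood at another width than promoters in general. All 28 were marked in Q111SST and 27 with DKI. Their median width ratio was 0.996, beside 0.833 over all promoters, and 20 of 27 lay above the median of all. Narrower were 3, Slc7a5, Vldlr and Nupr1, beside 18.6% of all promoters and 12.6% of those above percentile 75, where the median of this list lay (84.3). Chac1, which degrades glutathione, had a score of 123 over 1167 bp in Q111SST and 37 over 1851 bp with DKI, at percentile 85.9 and 40.8. Atf3, a stress-induced transcription factor, had 72 over 2062 bp and 34 over 2614 bp, at percentile 68.0 and 37.4. Atf5 went from 2719 to 3841 bp and the chaperone gene Hspa5 from 2792 to 3115 bp, with percentiles lower by 12.2 and 18.3 points. Pycr1 of proline synthesis (94.5 and 73.2) and Gpt2, an alanine aminotransferase (95.9 and 75.8), were lower, at widths of 989 and 1085 bp in Pycr1 and 1097 and 1137 bp in Gpt2. In all, 10 of 27 were lower, near the 38.9% of all promoters, and 1 was higher, Slc7a5, the light chain of a large amino acid transporter, at 83.4 and 93.6. The median difference with equal-sized lists was -0.30 points, beside -1.85 for all. Width ratios near 1 were also present in the other lists. The median ratio to Q111SST was 1.02 in Q7SST, 1.03 with cyproheptadine, 1.04 with loxapine and 1.02 with meclizine, and Chac1 was narrowest in Q111SST and 1851 to 2330 bp wide in the other 5 lists. Cebpb, a partner of ATF4, had a Q111SST score of 150 and no DKI peak within 1 kb, but a DKI peak of score 98 lay 1241 bp from the start, at percentile 82.2. Cyproheptadine and loxapine had no Cebpb peak within 1 kb either. TGATGCAA was present in 5 of these 27 promoters, or 18.5%, between 250 bases before and 50 after the start, beside 0.452% of all promoters marked in both lists. The 5 were Atf3, Chac1, Slc7a11, Pycr1 and Herpud1. The list was chosen for stress response genes, and the motif is the core of sites in such genes. The higher share can therefore follow from the choice of genes. It describes genome sequence and is no measure of a difference with DKI.

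Immediate early genes, which respond to serum and growth factors within minutes, had a higher median difference than all promoters, which was not tested. Of 29 genes 27 were marked in both lists. With whole lists 2 were higher and 9 lower (3.51% and 38.9% of all promoters), with a median of -4.32 points. With equal-sized lists 11 were higher and 3 lower (11.1% and 21.6% of all promoters), with a median of 4.61 points, beside -1.85 over all promoters and -1.54 over all promoters between percentiles 50 and 75 in Q111SST, where the median of this list lay (64.7). Between percentiles 25 and 50 the median of all promoters was 5.29 points, above that of the list. Members were not matched by strength. Egr1, a zinc finger factor of this response, had a score of 63 in Q111SST and 114 with DKI. Its percentile was 63.7 and 88.2, and in the other 4 lists it lay between 69.0 and 74.1. Egr3 scored 55 and 85, at percentile 59.0 and 76.3, and lay between 56.7 and 65.6 elsewhere. In both genes DKI was the highest of the 6 lists. Fos (64.7 and 72.6), Fosb (78.3 and 85.5) and Ccn1, a secreted matrix protein (55.5 and 64.1), differed by 7.28 to 8.66 points with whole lists, short of a call, and by 14.1 to 22.6 points with equal-sized lists. Not all members followed. Klf4 was at percentile 83.7 and 55.9, Btg2, an anti-proliferative gene, at 90.3 and 71.0, and Fosl1 at 76.5 and 59.1. In width the list was like all promoters, with a median ratio of 0.838 beside 0.833 and 6 of 27 narrower beside 18.6%. Among all promoters of at least 3 kb in Q111SST 36.2% were narrower. Wide members were among those that narrowed. Junb was 5353 bp wide in Q111SST and 1081 bp with DKI, and the bases covered within 5 kb were 5353 and 1984. The dual-specificity phosphatase gene Dusp5 was 4297 and 778 bp wide, and 4297 and 2089 bp were covered. Egr3 itself was 3292 and 1200 bp wide. The median equal-sized difference of the list from Q111SST was 1.63 points with cyproheptadine, -0.02 with meclizine, -1.89 in Q7SST and -4.31 with loxapine.

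Genes of mitosis and replication had a lower median difference than all promoters. All 30 were marked in both lists, 15 were lower and 0 higher with whole lists (38.9% and 3.51% of all promoters), and with equal-sized lists 9 were lower and 3 higher (21.6% and 11.1% of all). The median difference was -10.4 points with whole lists and -6.82 points with equal-sized lists, beside -6.62 and -1.85 for all promoters and -2.22 for equal-sized lists above percentile 75. Their median Q111SST percentile was 85.3. Rrm2, a subunit of ribonucleotide reductase, scored 72 and 39, at percentile 68.0 and 43.0. Ccnb1 scored 85 and 49, and Ccna2 142 and 76. Mki67, the proliferation marker, scored 139 and 80. With either list size 12 of 30 lay above the median difference of all promoters. Those called higher with equal-sized lists, by 12.0 to 16.9 points, were Ccnb2 (86 and 99), Plk1 (97 and 106) and Ttk (108 and 113). Widths followed those of all promoters, with a median ratio of 0.857. The median equal-sized difference was -0.24 points with cyproheptadine, -1.71 with loxapine, -2.72 with meclizine and -3.33 in Q7SST, each nearer to 0 than with DKI.

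**Figure D4:**
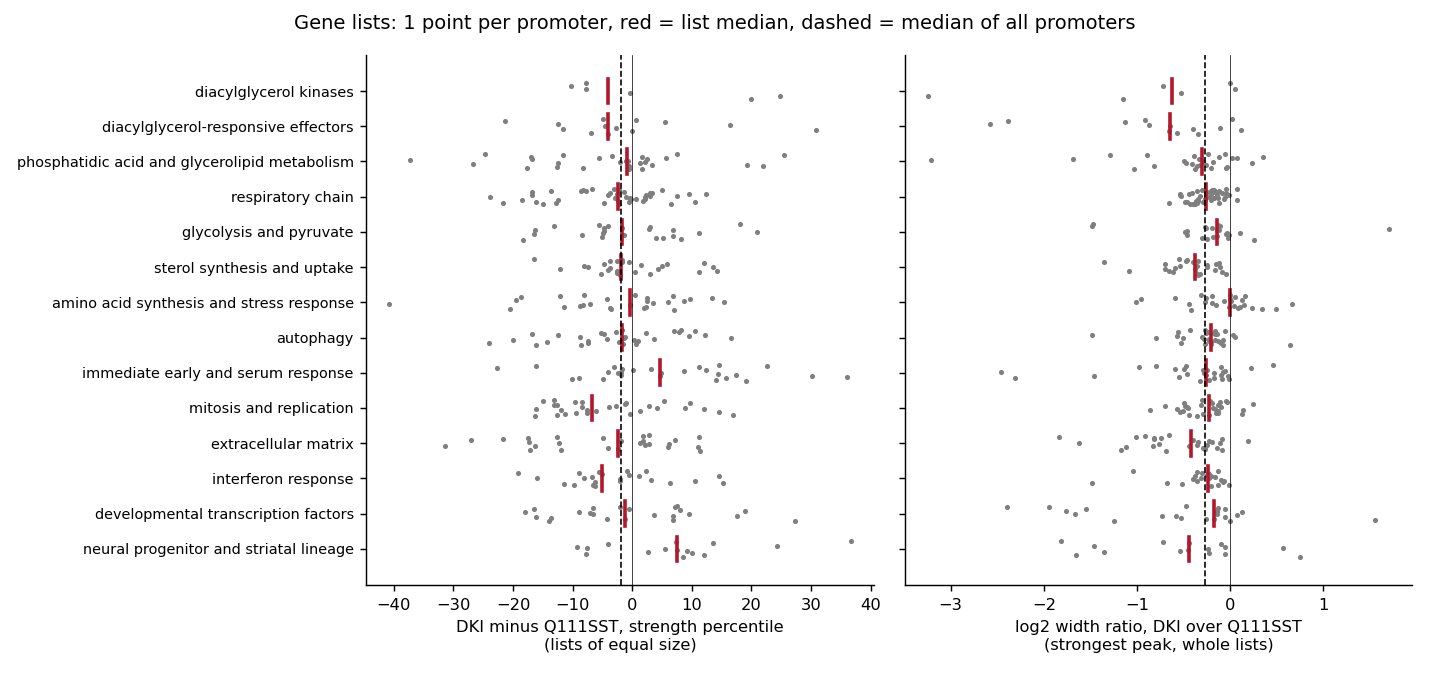
Each grey point is 1 promoter of a gene list, placed at its DKI minus Q111SST strength difference with equal-sized lists (left, percentile points) and at its log2 width ratio (right), with the list median in red and the median of all promoters dashed. The immediate early list has a median of 4.61 points and the mitosis list one of -6.82 points, and the amino acid and stress list has a median log2 width ratio of -0.01 beside -0.26 for all.

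The promoters of the kinases that DKI is named for had no single direction. Of 10 diacylglycerol kinase genes, 6 were marked in both lists, and Dgkb, Dgkg, Dgki and Dgkk in neither. With whole lists 1 was higher and 3 lower, and with equal-sized lists 2 were higher and 1 lower. Over all promoters 3.51% were higher and 38.9% lower with whole lists, and 11.1% and 21.6% with equal-sized lists. Dgkh was at percentile 56.2 in Q111SST and 34.8 with DKI, Dgkq at 87.0 and 72.6, and Dgkz at 78.6 and 64.1, all 3 called lower. Dgka (40.6 and 41.9) and Dgke (72.0 and 62.7) moved by less than 10 points. With equal-sized lists Dgka differed by 19.9 points and was called higher, while Dgkh (-7.72 points) and Dgkz (-7.82 points) were no longer called. Dgkd was called higher, at 61.9 and 74.8, over a peak of 2170 bp in Q111SST and 229 bp with DKI. Among targets of diacylglycerol (13 genes marked in both lists), 9 were lower, 7 narrower and 0 higher, beside 38.9%, 18.6% and 3.51% of all promoters. Between percentiles 50 and 75, where their median lay (57.6), 56.0% of promoters were lower, 28.8% narrower and 6.18% higher. Unc13a, a synaptic vesicle priming factor, was at 65.6 and 33.5, and Chn1, a Rac GTPase-activating protein, at 40.6 and 9.61. The protein kinase C and D genes Prkca (75.8 and 64.1), Prkcd (57.6 and 37.4) and Prkd1 (68.5 and 47.0) were lower, and Prkce (82.0 and 76.3) was not. The median difference of these targets was -15.1 points with whole lists and -4.15 with equal-sized lists, where 2 were higher and 3 lower (11.1% and 21.6% of all). Rasgrp1 and Prkch had weak Q111SST peaks (scores of 31 and 16) and none with DKI. In phosphatidic acid and glycerolipid metabolism (28 genes), 14 were lower and 2 higher, and with equal-sized lists 9 were lower and 3 higher (21.6% and 11.1% of all promoters). The higher ones were Lpin3, a phosphatidic acid phosphatase (81.3 and 97.4), and Plcd1, a phospholipase C (72.8 and 89.7). The largest difference was that of Cds1, which makes CDP-diacylglycerol, at 59.6 and 9.61 over peaks of 1794 and 193 bp. Lpin1 was at 92.6 and 72.6, and Agpat2 at 70.7 and 34.8.

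Metabolic lists had equal-sized medians near that of all promoters (-1.85 points). Their median Q111SST percentiles were 78.3 to 89.6. Of all promoters above percentile 75, 32.1% were lower, 1.81% higher and 12.6% narrower. All 44 respiratory chain genes were marked in both lists, 14 were lower (38.9% of all promoters were), 0 higher and 1 narrower (18.6% of all), with a median of -2.34 points for equal-sized lists. The largest difference among the lower members was in Sdhb of complex II, at percentile 67.6 and 33.5. In glycolysis (23 genes) 9 were lower and 0 higher, with a median of -1.65 points for equal-sized lists. Their median width ratio was 0.908, beside 0.839 in the respiratory chain and 0.833 over all promoters. Pkm, pyruvate kinase, was 1301 bp wide in Q111SST and 4262 bp with DKI, and 4357 bp with meclizine, but the bases covered within 5 kb were 3993 and 4723. The glucose transporter gene Slc2a1 was at 83.4 and 59.9. In sterol synthesis and uptake (26 genes) 6 were lower and 1 higher: Fdps, farnesyl diphosphate synthase, at 87.3 and 97.6. Here 7 were narrower, and the median width ratio was 0.772. With equal-sized lists 4 were higher and 2 lower (11.1% and 21.6% of all). The higher ones included Fdps, Msmo1 and Idi1, by 11.2 to 14.3 points, and the lower ones were Cyp51 and Stard4, by 12.1 and 16.5 points. In autophagy (31 genes) 9 were lower and 1 higher, and 21 lay above the median width ratio of all promoters. Pik3c3, the lipid kinase of autophagy initiation, was at 77.9 and 47.0.

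Of 28 matrix genes marked in both lists, 18 were lower and 0 higher with whole lists, beside 38.9% and 3.51% of all promoters. Their peaks were narrower in 13, beside 18.6% of all. Between percentiles 50 and 75, where the median of this list lay (72.2), 56.0% of all promoters were lower and 28.8% narrower. The median width ratio was 0.748. Col3a1 was at percentile 87.8 and 66.8, Sparc at 90.7 and 70.4, and Mmp14, a membrane metalloproteinase, at 61.9 and 37.4 over 2805 and 784 bp. The lower rank depended on the scale. With equal-sized lists 10 were lower and 3 higher (21.6% and 11.1% of all), with a median of -2.39 points beside -1.85 for all, and ranked among promoters the median was 2.31 points. Among interferon response genes 9 of 23 were lower, near the 38.9% of all promoters, and with equal-sized lists 3 were lower and 3 higher (21.6% and 11.1% of all). Their equal-sized median was -5.01 points, beside -1.85 for all and -2.22 above percentile 75, where the median of this list lay (87.8). Rsad2 was at 51.5 and 29.5, and Ifitm3 at 92.0 and 70.4. Developmental transcription factors, many of them weakly marked, had 16 of 23 lower with whole lists, beside 38.9% of all promoters and 56.0% of those between percentiles 50 and 75, where the median of this list lay (53.9). With equal-sized lists 5 were lower and 3 higher, beside 21.6% and 11.1%. Of 28 marked in Q111SST 5 were lost (En2, Foxa2, Msx2, Irx1 and Irx2), beside 4.89% of all. The list had a median of -14.3 points for whole lists and -1.17 for equal-sized lists. The label of the cells was checked on markers of neural progenitors and the striatal lineage. Of 32 such genes 17 were marked in Q111SST and 15 with DKI, against 5 and 4 of 27 genes of other cell types. Of all 21829 coding genes 12567 and 12009 were marked, so the progenitor and striatal genes were marked no more often than coding genes in general. The check thus rests on the contrast with genes of other cell types. Nes, Vim, Sox2, Dlx1, Dlx2 and Foxp1 were marked in both lists, and Drd1, Drd2, Gad1 and Bcl11b in neither. With whole lists 2 of the 15 marked in both were higher, 4 lower and 5 narrower, and Pax6 and Ppp1r1b were lost. The higher ones were Ebf1, a factor of striatal neuron differentiation (65.6 and 79.2), and Penk, proenkephalin (24.2 and 37.4). Sox2, a neural stem cell factor, was among the lower ones (65.6 and 47.0). The median equal-sized difference was 7.53 points over 15 genes. Their median Q111SST percentile was 56.2, and all promoters between percentiles 50 and 75 had an equal-sized median of -1.54 points, against 5.29 between 25 and 50. The difference of the list from either was not tested.

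Promoters marked in 1 list were mostly weak. Of 12567 promoters marked in Q111SST 614 had no DKI peak (4.89%), and of 9262 not marked in Q111SST 56 had one (0.605%). The lost promoters had a median Q111SST score of 23, and 126 of them had a DKI peak within 5 kb. The strongest without one was Notch3, a Notch receptor, with a Q111SST score of 77 over 411 bp. It was also marked in Q7SST (percentile 74.1), with meclizine (70.3), with cyproheptadine (23.9) and with loxapine (22.7). The next were Gm4353, Ttll6, Fsd1, Tmem191c, Hist1h2aa with Hist1h2ba, Calml4 and Gm9774, with scores of 65 to 75. Of the 56 gained promoters 29 had a Q111SST peak within 5 kb. The strongest of the other 27 was that of Csn3, a milk casein gene, with a DKI score of 79 over 880 bp, at percentile 73.2. It was marked with loxapine (42.7), meclizine (44.7) and cyproheptadine (14.4) too, and not in Q7SST. Fam71f2 (score 66), Fmo5, Il1rl2, Rtn4r, Cyp2ab1, Prr32 and Krtap3-1 (scores of 22 to 30) followed. Of these 8, only Krtap3-1 was marked in no list but DKI.

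Few peaks were found with DKI alone. Peaks that overlapped none of the other 5 lists numbered 684, with a median score of 15, and 3.80% lay within 1 kb of a coding start. The strongest was at chr6:134920403-134920611 on GRCm38, in a UTR of Cdkn1b, a cyclin-dependent kinase inhibitor, with a score of 101. Next were peaks between genes on chromosomes 10 and 17, with scores of 54 and 53. They were followed by a peak of score 47 in an intron of Deptor (chr15:55145958-55146154) and one of score 44 between genes, 2814 bp from the start of Osr2 (chr15:35293092-35293284). Conversely, 12184 Q111SST peaks had no DKI peak, and 6.77% of them were near a coding start. Their median score was 20, over a median of 489 bp. The 5 strongest scored 100 to 117, and included peaks in an exon of Espn (chr4:152138696-152139024) and in an intron of Dock8 (chr19:25033108-25033355).

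Sequence set apart the promoters found in 1 list more than those that differed in rank. The ratio of observed to expected CpG between 250 bases before and 50 after the start had a median of 0.798 over all promoters marked in both lists. It was 0.812 for promoters higher on both scales and 0.781 for those lower on both, but 0.555 for lost and 0.321 for gained promoters. TATAAA, on either strand, was present in 5.77% of all promoters, 4.46% of the higher, 5.49% of the lower and 6.08% of the narrower ones. It was present in 10.6% of the wider ones (n = 151), 10.3% of the lost and 14.3% of the gained. GGGCGG was present in 67.4% of all promoters and 37.5% of gained ones, and CCAAT in 37.0% of all. Several gene lists held CCAAT more often, with 76.7% for mitosis and replication, 69.2% for sterol, 63.0% for amino acid and stress and 60.9% for developmental genes. The cyclic AMP response element TGACGTCA was present in 3.31% of all promoters, 3.15% of the higher and 3.33% of the lower ones. The AP-1 site TGACTCA was present in 3.33% of all, 3.15% of the higher and 3.37% of the lower ones. From the lowest to the highest CpG ratio, in 4 groups of 2986 to 2991 promoters, 22.7%, 17.0%, 15.9% and 18.7% of promoters were narrower, with no steady order.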

How the data were processed

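H3K4me3 ChIP-Seq used chromatin digested with MNase and single-end reads. Per the labels, the authors' processing named Trimmomatic 0.36, Bowtie2, SAMtools 1.3, MACS2 and build mm10. Thresholds, input control, treatment of multi-mapping reads and pooling of replicates are not given in the sources used here. The deposited files give a start, an end and a whole-number score per peak (minimum 10), with no read counts, so depth and its precision are unknown. Strength calls rested on percentiles within a list. Raw scores are printed as given, and whether they share a scale between lists is unknown.

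Genes were GENCODE M21 protein-coding symbols, with older list symbols matched through RefSeq synonyms, and sequences were read from GRCm38. Width was that of the highest-scoring peak within 1 kb of a start. Named genes were the largest changes on whole and equal-sized lists (10 higher, 10 lower, and 5 each way among promoters at or above percentile 75 in either list), by both width measures with scores at or above the median (up to 10 each way), the 8 strongest gained and lost with no peak of the other list within 5 kb, the 5 strongest peaks of 1 list, and members of 15 gene lists. The gene lists and members were chosen with earlier results of these data known. There was 1 list per condition, so no test between conditions was made. Alternatives were lists of equal size, a pooled median score, windows of 0 and 5 kb, merged peaks, ranks among promoters, covered bases, a 50% reciprocal overlap, autosomes and X alone and, chosen after seeing the data, score times width and centring on the median. The calling code was checked on a copy of the Q111SST list with 200 planted changes per class. That copy lacked the general difference in list length and width between the 2 lists, so it checks the code and not the calls. Tables were handled with pandas 2.3.3 and numpy 2.4.6 under Python 3.11.15, ranks and intervals with scipy 1.17.1, and genome sequence with pysam 0.24.0.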

Additional observations from a re-analysis of the deposited data

How the results depend on the processing

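With 1 list per condition and no read depth, weak peaks cannot be told apart from peaks lost to depth. No paired analysis was possible because there is only 1 list for either condition. Higher promoters (419) numbered 1316 with equal-sized lists, 997 at or above the pooled median score, 236 with a peak over the start, 2681 when ranked among promoters marked in both lists, 215 by score times width and 1358 relative to the median of all promoters, both of the last chosen after seeing the data. Lower promoters (4650) numbered 2551 with equal-sized lists, 2885 when ranked among promoters and 2551 relative to the median. Wider promoters (151) numbered 83 above the pooled median score, 60 with a peak over the start, 53 by covered bases and 263 relative to the median. Narrower ones (2222) numbered 1243 with a peak over the start and 1330 relative to the median. Gained promoters (56) numbered 173 with equal-sized lists and 178 with a peak over the start. Lost ones (614) numbered 314 with equal-sized lists, 1182 above the pooled median score and 1114 with a peak over the start. The cause was not tested.

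The share of a gene list above the median difference of all promoters moved beyond its Wilson interval in these cases. With a peak over the start it was 0% for diacylglycerol kinases (33.3% as reported, 3 genes left). Above the pooled median score it was 0% for diacylglycerol targets (30.8%), 50% for developmental factors (26.1%) and 77.8% for progenitor and striatal genes (53.3%). Ranked among promoters it was 81.5% for immediate early genes (59.3%), 60.7% for matrix genes (32.1%) and 56.5% for developmental factors, which stood at 52.2% with equal-sized lists. By score times width it was 77.8% for amino acid and stress genes (51.9%) and 67.7% for autophagy (48.4%).

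Above the pooled median score the lists held 19756 (Q111SST) and 15859 (DKI) peaks. The ratio of median widths, DKI over Q111SST, was 0.851 as reported, 0.833 above the pooled median score and 0.699 with equal-sized lists. With a 50% reciprocal overlap DKI peaks met 55.3% of Q111SST peaks, 95.1% of those above percentile 75 and 13.2% of those up to percentile 25, 76.5% of those of at least 3 kb and 21.2% of those under 500 bp.

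Named genes changed sign as follows. By score times width the differences were -24.3 points in Ccdc88c, -8.47 in Tmtc2, -16.0 in Rpl36, -8.21 in Rab11fip3, -11.0 in Map7d1 and -40.0 in Oaz2. With peaks within 5 kb they were -4.14 in Qk, -6.65 in Zfp692 and 11.3 in Aamdc, and with merged peaks 11.3 in Aamdc and a log2 width ratio of -0.16 in Ralgapb. With a peak over the start Slc38a2 was 5.22 points higher. Narrower named genes changed sign in none of the alternatives that could be computed for them. Gained and lost named genes have no difference between the lists. Their values are percentiles, which are never negative, so a change of sign was not possible for them. The call was lost without a change of sign in Ank1 (4.23 points) and Klf3 (-5.75) with a peak over the start, and in Hoxc6 (3.93), Rpl36 (3.33) and Klf3 (-4.90) with peaks within 5 kb.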
